A study of Mus musculus with 46 samples.

Results

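The comparison described here is between adult dorsal raphe nuclei of F1i and F1r mice, the 2 directions of a cross between the C57 and CAST strains. It uses the 18 adult libraries of the 46 in the series, 9 from F1i and 9 from F1r. The adult table gives a read count for the C57 allele and another for the CAST allele of each gene, and the total of a gene was taken as their sum. All 18 adult libraries were from females, as were the 14 P5 and 14 P15 libraries of the same crosses (postnatal days 5 and 15) that are set beside them. Tissue RNA was total RNA, made into Illumina TruSeq libraries and read as single 50-base reads. The labels give no genotype beyond the cross, no treatment and no exact adult age, and do not state which strain was the mother in F1i. Of the 15499 genes in the table, 14439 were placed on an autosome, and 11962 of these had a mean total of at least 20 counts per adult library and were tested.

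Reciprocal F1 mice carry the same autosomal alleles, 1 set from each strain, and differ in which parent gave which set. Imprinted genes are read mainly from the allele of 1 parent, so in a reciprocal pair the strain that supplies the transcript changes with the direction of the cross. Mitochondria come from the mother, and the mother herself is of another strain in each direction. The dorsal raphe nucleus, in the midbrain and rostral hindbrain, holds the largest group of serotonin neurons of the brain, among other neurons, glia and passing axons.

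The tissue label was matched by its serotonin neuron markers. Tph2, the enzyme that starts serotonin synthesis in the brain, had 450 to 681 CPM (the per-million count of a library, scaled by TMM factors) in F1i and 457 to 627 CPM in F1r. Slc6a4, the serotonin transporter, had 252 to 377 CPM in F1i and 246 to 363 CPM in F1r. Dbh, which marks noradrenaline neurons, and Pcp2, which marks cerebellar Purkinje cells, stayed at or below 1.25 CPM and 0.408 CPM in every adult library. Th and Slc6a3, also catecholamine markers, had F1i medians of 61.6 and 16.3 CPM and F1r medians of 57.6 and 13.8 CPM. The ependymal markers Foxj1 and Ccdc153 had F1i medians of 79.9 and 136 CPM and F1r medians of 74.8 and 122 CPM. Chat, a marker of cranial motor neurons, had 15.6 to 29.3 CPM in F1i and 20.9 to 36.8 CPM in F1r.

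Each adult label carries 2 numbers, whose meaning the labels do not give. The second, 1, 2 or 3, moved with depth and with expression. Libraries numbered 1 held 7838173 to 13037867 counts, those numbered 2 held 4912934 to 11081451 and those numbered 3 held 10285890 to 13085952. Deviations from the cross mean, averaged over the 3 libraries of a number, correlated between F1i and F1r across genes at r = 0.72, 0.49 and 0.40 for numbers 1, 2 and 3. Single libraries correlated between the crosses at 0.21 on average within a second number and at -0.11 across numbers. The second number had been planned as a block and was kept as such in the adult fits. Exceptions are named: results without it, within a single second number or with libraries summed. The first principal component of these deviations held 42.4% of the variance within crosses, and its gene loadings correlated with GC content at r = -0.76, a description across genes that share libraries. F1i 1_1 stood far from the rest on it. F1r 7_1 was the shallowest library of number 1 and F1r 7_2 the deepest of number 2. The deviations of F1r 7_2 correlated at 0.16 with F1i libraries of number 1 and at -0.17 with those of its own number, and those of F1r 7_1 at -0.07 with its own number. Results are therefore also given without these 3 libraries, called outlying below. On the component F1r 7_1 and F1r 7_2 lay within the range of the others, at -1.50 and 5.82. They are called outlying for their depth and correlation alone. The depth ranges of the crosses were alike, 4912934 to 13085952 counts in F1i and 6428656 to 13012262 in F1r. Nothing in the labels says that the 9 libraries of a cross came from 9 animals, so the p-values measure the spread between libraries only.

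A total differed between F1i and F1r in 35 of the 11962 genes, 0.293%, at an adjusted p under 0.05 (edgeR quasi-likelihood test with Benjamini-Hochberg adjustment, as for all adjusted p-values below unless another tool is named). In F1i 26 genes were higher (0.217% of those tested) and 9 were lower (0.0752%). Without the block 10 genes passed (0.0836%), all among the 35: the 4 mitochondria-like loci described next, Ube3a, Cplx1, Plagl1, Sfi1, Unc13b and Adamts20. Without F1i 1_1, F1r 7_1 and F1r 7_2 the count was 20, of which 18 were among the 35. When the 3 libraries that share a first number were summed, giving 3 samples against 3, 280 genes passed (2.34%) and all 35 were among them. The sums hold the same counts, with a library of each second number in each sum, so this is no separate support. Deviations of libraries that share a cross and a first number correlated at -0.24 on average, beside -0.19 for those of a cross sharing neither number.

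The largest differences were at 4 annotated pseudogenes that resemble genes of the mitochondrial genome, Gm13339, Gm13340 and Gm13341 on chromosome 2 and Gm11410 on chromosome 4. Over their GENCODE M21 transcripts (GRCm38), Gm13340 is 97.6% identical to mt-Co1 over 1545 bases, Gm13341 97.6% to mt-Co2 over 672, Gm13339 96.7% to mt-Nd2 over 510 and Gm11410 92.9% to mt-Cytb over 1142. The first 100 aligned bases of 2 of these pairs, 5′ to 3′ with the differing bases in capitals, show how much of a 50-base read the copy and the mitochondrial gene have in common.
Gm13340: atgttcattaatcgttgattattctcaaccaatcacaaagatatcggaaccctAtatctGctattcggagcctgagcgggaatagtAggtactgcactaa
mt-Co1: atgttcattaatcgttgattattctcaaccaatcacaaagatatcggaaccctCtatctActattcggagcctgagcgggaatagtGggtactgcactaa
Gm11410: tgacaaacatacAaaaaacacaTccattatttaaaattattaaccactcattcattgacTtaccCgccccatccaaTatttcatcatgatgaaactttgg
mt-Cytb: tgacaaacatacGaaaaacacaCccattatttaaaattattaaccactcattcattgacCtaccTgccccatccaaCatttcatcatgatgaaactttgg

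Gm13340 averaged 12820 CPM in F1i, while in F1r its total was 4 to 48 counts per library. Gm13341 averaged 3463 CPM in F1i and had a single count in a single F1r library. Gm13339 averaged 1504 CPM in F1i against 1 to 8 counts per library in F1r, and Gm11410 averaged 641 CPM against 0 to 6 counts. No library of one cross came near the other, and nearly all counts in F1i were assigned to CAST (99.96% to 99.99%). They are set apart from the other 31 genes below.

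The other 31 genes differed by small amounts. Their absolute log2 fold changes ran from 0.17 to 0.92 with a median of 0.30, with 22 higher and 9 lower in F1i. The sign was the same within each of the second numbers 1, 2 and 3 for all 31. These libraries also picked the genes, so values within a second number, here and for genes below, describe the calls and are no separate support. Of the 11962 genes tested, 8 (0.0669%) had every F1i library above every F1r library, and 3 (0.0251%) had every F1i library below. The 8 include the 4 mitochondria-like loci. Of the 31 genes, 4 were among those above and 3 among those below.

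**Figure D1:**
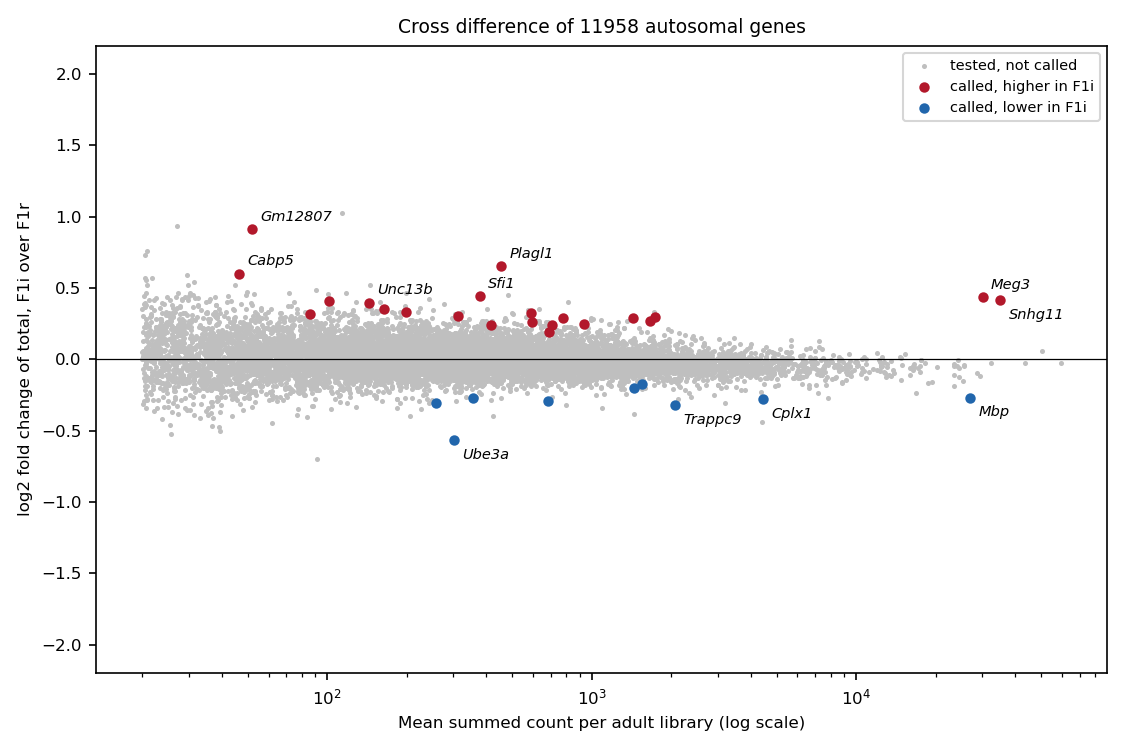
Log2 fold change of the total, F1i over F1r, against the mean summed count per adult library (log axis) for 11958 autosomal genes, the 4 mitochondria-like loci left out. Grey points were tested and not called, red points were called higher in F1i and blue points lower, and called genes lay between -0.57 and 0.92 on the log2 scale, from low to high counts.

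Imprinted genes gave 4 of the 31. Of the 19 tested genes on the list of maternally expressed imprinted genes, Meg3 rose and Ube3a and Trappc9 fell in F1i. Of the 22 tested paternally expressed ones Plagl1 rose. Over all genes tested 0.217% were called higher and 0.0752% lower. The median log2 fold change was -0.04 over the maternal list and 0.00 over the paternal list, beside 0.00 over all genes tested. For these genes the totals set the product of one strain's allele mainly against that of the other's.

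Ube3a, a ubiquitin ligase read from the maternal allele in mature neurons, had a lowest, median and highest total of 21.4, 24.1 and 26.1 CPM in F1i, against 31.7, 34.2 and 39.95 CPM in F1r. Every F1i library lay below every F1r library, and the log2 fold change was -0.57 ± 0.06 (SE, n = 9 and 9, adjusted p = 2.75e-06). CAST gave 64.2% of its counts in F1i and 30.4% in F1r. The C57 allele averaged 8.55 CPM in F1i and 24.6 CPM in F1r, and the CAST allele 15.3 CPM in F1i and 10.8 CPM in F1r, so the C57 allele's difference was the larger. An antisense transcript crosses this gene, and since the counting is not stated to use strand, reads of both cannot be told apart.

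Trappc9, a subunit of a complex that tethers vesicles in traffic through the Golgi, had 142, 189 and 206 CPM in F1i (lowest, median, highest) and 193, 230 and 257 CPM in F1r. Of the F1i libraries, 6 were below every F1r library, and the fold change was -0.32 ± 0.05 on the log2 scale (adjusted p = 0.00058, and 0.0715 without the block). CAST gave 73.7% of its counts in F1i and 23.8% in F1r. Between the crosses its C57 allele changed by -1.86 and its CAST allele by 1.32 on the log2 scale.

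Plagl1, a zinc finger transcription factor that is expressed from the paternal allele, had 43.6, 50.8 and 74.6 CPM in F1i and 30.0, 33.5 and 41.7 CPM in F1r. The crosses did not overlap, and it had the smallest adjusted p of the genes outside the mitochondria-like loci, 1.39e-07, with a log2 fold change of 0.66 ± 0.06. Its transcript was almost wholly of one strain in each cross: CAST gave 0.61% of the counts in F1i and 98.9% in F1r. The comparison of totals is thus one of the C57 allele, at 54.4 CPM in F1i, with the CAST allele, at 34.2 CPM in F1r.

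Meg3, a long non-coding RNA of the Dlk1 cluster that is expressed from the maternal allele, ran the other way in strain. It had 2620, 3436 and 4014 CPM in F1i, with CAST giving 99.0% of the counts, and 2017, 2547 and 3296 CPM in F1r, with CAST giving 0.14%. Its log2 fold change was 0.44 ± 0.08 (adjusted p = 0.0134). The crosses overlapped, with 6 of the 9 F1i libraries above every F1r library, and the adjusted p was 0.0542 without the 3 outlying libraries and 0.106 without the block.

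For other imprinted genes the main strain of the transcript changed over between the crosses without a difference in total that passed. Rasgrf1, an exchange factor for Ras, drew 0.53% of its counts from CAST in F1i and 99.0% in F1r. Its totals were 680 ± 26.7 CPM in F1i and 713 ± 19.03 CPM in F1r (SD, n = 9 each), a log2 fold change of -0.07 ± 0.03 (adjusted p = 0.361). Peg3, a zinc finger gene, had 1675 ± 167 CPM in F1i and 1727 ± 133 CPM in F1r (adjusted p = 0.784), and Impact, a regulator of the Gcn2 kinase, had 785 ± 134 CPM in F1i and 783 ± 77.9 CPM in F1r (adjusted p = 0.992). Inpp5f, a phosphoinositide phosphatase, had 221 ± 38.7 CPM in F1i and 215 ± 19.97 CPM in F1r (adjusted p = 0.863). At an unadjusted p under 0.05 Asb4, Calcr, Igf2r, Zrsr1, Sfmbt2 and Jade1 had higher totals in F1i too, with log2 fold changes of 0.14 to 0.27. At that level Ago2, Magel2 and Airn had lower totals, with log2 fold changes of -0.12 to -0.47. The adjusted p-values of all these genes were 0.0978 to 0.343. Over all genes tested 8.08% were higher and 5.93% lower at the unadjusted level.

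H19, a maternally expressed long non-coding RNA, averaged only 10.9 counts and was below the minimum for testing. It had 1.93 ± 0.52 CPM in F1i and 0.28 ± 0.17 CPM in F1r (SD, n = 9 each), with every F1i library above every F1r library. With no minimum on counts its log2 fold change was 2.72 ± 0.27 (adjusted p = 5.72e-07). In F1i 99.6% of its counts were of CAST. H19 was tested at both younger ages. Its log2 fold change was 1.61 ± 0.10 at P5 (adjusted p = 3.35e-17) and 2.025 ± 0.21 at P15 (adjusted p = 5.25e-05).

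**Figure D2:**
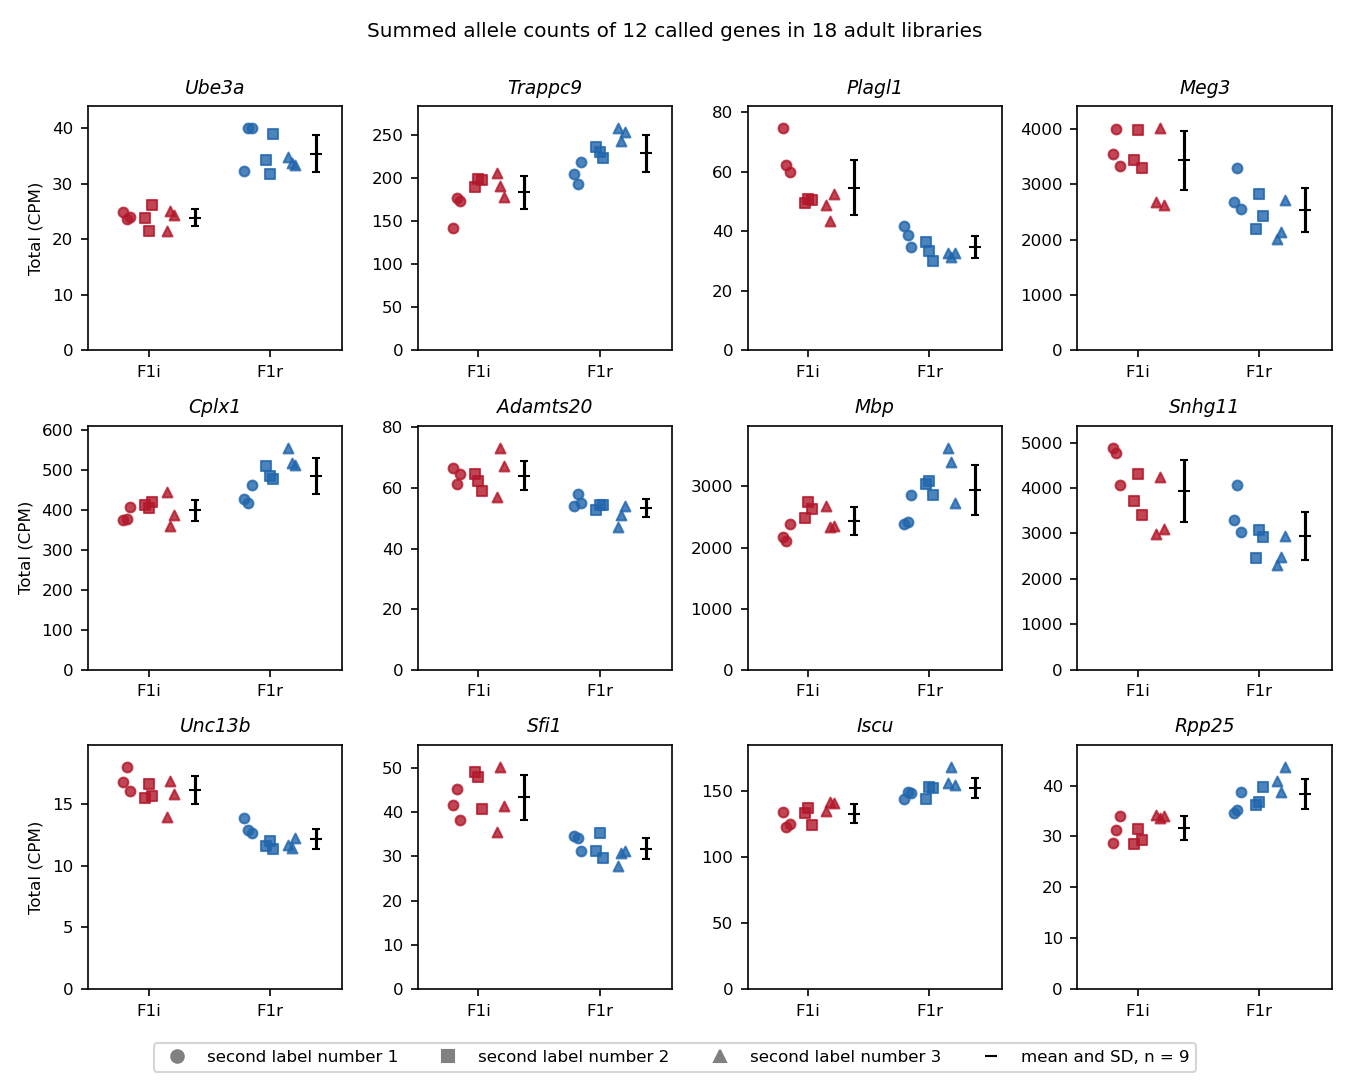
Totals in CPM of 12 genes called in adults, 1 point per library, F1i left and F1r right, with the second label number shown by the shape of the point and the mean and SD (n = 9) beside each cross. Ube3a, Iscu and Rpp25 are lower in all 9 F1i libraries than in any F1r library, Plagl1, Unc13b and Sfi1 are higher in all 9, and the other 6 genes overlap.

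Among genes of synapses and calcium signalling, Cplx1 was called lower in F1i, and Unc13b, Shisa7, Camk1 and Cabp5 were called higher. The ones called higher were named after their values were seen. Cplx1, complexin 1, which clamps and times the SNARE fusion machinery, had 360, 404 and 446 CPM in F1i (lowest, median, highest) and 417, 485 and 555 CPM in F1r. Its log2 fold change was -0.28 ± 0.05 (adjusted p = 0.00333), 7 of the 9 F1i libraries were below every F1r library, and it passed without the block (0.043) and without the 3 outlying libraries (0.00913). Within the second numbers 1, 2 and 3 it was -0.17, -0.25 and -0.41.

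Unc13b, also called Munc13-2, primes synaptic vesicles for release. It had 13.9, 16.02 and 17.99 CPM in F1i and 11.4, 12 and 13.9 CPM in F1r, with no overlap between the crosses. The log2 fold change of 0.40 ± 0.06 (adjusted p = 0.000776, and 0.00226 without the block) was close to the same at each second number, 0.37, 0.45 and 0.39.

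Shisa7, an auxiliary protein of GABA-A and AMPA receptors, was higher in F1i, at 179 ± 22.7 CPM, than in F1r, at 149 ± 18.5 CPM (log2 fold change 0.27 ± 0.06, adjusted p = 0.0497). Camk1, a calcium and calmodulin-dependent kinase, was at 21.9 ± 3.5 CPM in F1i and 17.4 ± 2.7 CPM in F1r (0.33 ± 0.07, adjusted p = 0.0355). Cabp5, a calcium-binding protein related to calmodulin, was at 5.56 ± 1.28 CPM in F1i and 3.53 ± 1.23 CPM in F1r (0.60 ± 0.13, adjusted p = 0.0366). Shisa7, Camk1 and Cabp5 were called in only 6, 7 and 7 of the 18 fits that left out 1 library, and their calls were lost without the 3 outlying libraries (adjusted p = 0.103, 0.0928 and 0.0944).

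The lists around these genes moved less. Of 22 presynaptic genes tested, which do not include Unc13b, Cplx1 alone passed and fell. At an unadjusted p under 0.05, 8 had a lower total in F1i and none a higher one, and the median log2 fold change was -0.07. Over all genes tested 5.93% were lower and 8.08% higher in F1i at that level. DESeq2 called 2 of the 22 lower, and 5 were called lower with libraries summed by first number, beside 0.995% of all genes. Among the presynaptic genes that did not pass were Syt2, a fast calcium sensor of release, at -0.23, Vamp1, a vesicle SNARE, at -0.18, and Rph3a, rabphilin, at -0.16 on the log2 scale (adjusted p = 0.195, 0.131 and 0.098). Of 36 voltage-gated channel genes tested, 5 were lower and 3 higher at an unadjusted p under 0.05, and the median was 0.00. Hcn2, a pacemaker channel, had a log2 fold change of -0.32 with an adjusted p of 0.0512. Of 32 glutamate and GABA receptor genes none passed, 2 were higher and 1 lower at an unadjusted p under 0.05, DESeq2, which called 1.08% of genes higher and 0.544% lower, also called none, and the median was 0.01.

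Mbp, myelin basic protein, was the one myelin gene that fell in the blocked fit. It had 2115, 2381 and 2745 CPM in F1i and 2388, 2866 and 3634 CPM in F1r, and 5 of the F1i libraries were below every F1r library. Its log2 fold change was -0.27 ± 0.06 (adjusted p = 0.0295). The call depended on the libraries used. It held in 9 of the 18 fits that left out 1 library and was lost without F1i 1_2, 2_1, 2_3 or 3_3 or F1r 5_2, 5_3, 6_2, 6_3 or 7_1 (adjusted p up to 0.0858). The adjusted p was 0.231 without the block and 0.065 without the 3 outlying libraries, and the log2 fold change stayed between -0.29 and -0.23 in the fits that left out 1.

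The other myelin genes did not pass in that fit, and nearly all lay on the same side. Of 16 genes of myelin and mature oligodendrocytes tested, 15, Mbp included, had a log2 fold change below 0, 11 of them at an unadjusted p under 0.05, and the median was -0.19. By comparison, 6101 of all 11962 genes tested were below 0, and 5.93% were lower at an unadjusted p under 0.05. DESeq2 called 2 of the 16 lower, beside 0.544% of the genes it tested. With libraries summed by first number 5 were called lower, beside 0.995% of all genes. Mobp, a protein of compact myelin, was at -0.24 (adjusted p = 0.113), Mag, a glycoprotein of the myelin membrane next to the axon, at -0.19 (0.144), and Cldn11, a tight junction protein of myelin, at -0.23 (0.119). The summed level of the list was 5718 to 7016 CPM in F1i and 6613 to 9178 CPM in F1r, so the crosses overlapped. In a bulk sample, fewer cells of a type and less RNA per cell cannot be told apart. Of 14 genes of oligodendrocyte precursors and new oligodendrocytes none passed, 1 was lower and 1 higher at an unadjusted p under 0.05, DESeq2 called none, and the median was -0.05.

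Genes of large axons followed a like order. Of 12 neurofilament and large axon genes tested none passed. Yet 10 of them were lower in F1i at an unadjusted p under 0.05, beside 5.93% of all genes tested. The median over the 12 was -0.22. This list shares Vamp1 and Syt2 with the presynaptic list and Kcna1, Kcnc1 and Scn4b with the voltage-gated channel list, so these lists are not separate groups of genes. DESeq2 called 1 of the 12 lower, beside 0.544% of the genes it tested, and the summed fit 6, beside 0.995% of all genes. Nefm and Nefh, the medium and heavy neurofilament subunits, were at -0.27 and -0.24 on the log2 scale (adjusted p = 0.198 and 0.206), and Pvalb, the calcium buffer parvalbumin, at -0.29 (0.0872). All 6 tested genes of cranial motor neurons had a log2 fold change below 0, beside 6101 of all 11962 genes, with a median of -0.25. Of these Chat, which makes acetylcholine, was at -0.35 (adjusted p = 0.113) and was the one with an unadjusted p under 0.05, while DESeq2 called 1 of the 6 lower.

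These list medians were not alike across the second numbers. Over all genes tested, 3.03%, 3.91% and 6.37% were lower in F1i at an unadjusted p under 0.05 within numbers 1, 2 and 3, so this share was itself highest within number 3. The myelin median was -0.09, -0.23 and -0.27 within numbers 1, 2 and 3, with 1, 10 and 6 of the 16 genes lower at an unadjusted p under 0.05. The large axon median was 0.00, -0.13 and -0.47, with 0, 3 and 10 of the 12 genes lower. The cranial motor neuron median was 0.02, 0.06 and -0.76, and all 6 genes were lower at that level within number 3. Without the 3 outlying libraries the myelin, large axon and motor neuron medians were -0.21, -0.25 and -0.33. With the GC correction they were -0.175, -0.203 and -0.274 over all libraries. The part of the second number and of depth in these list differences was not tested.

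**Figure D3:**
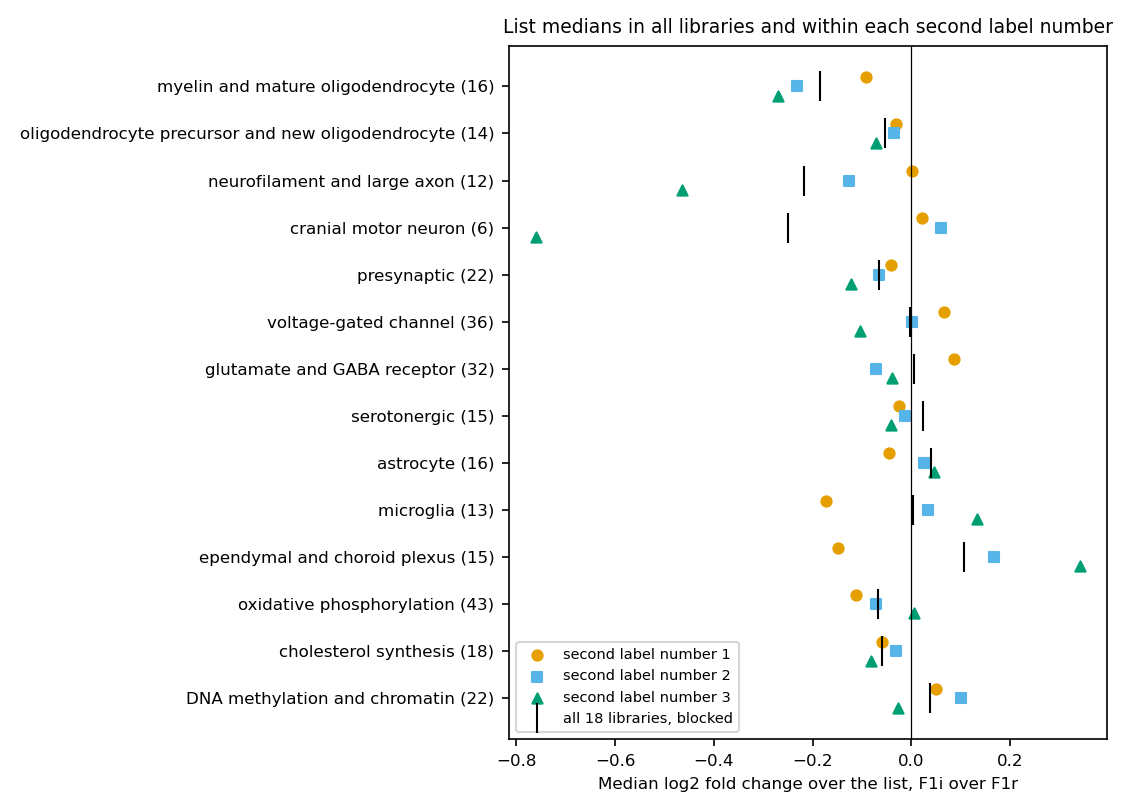
Median log2 fold change of the total, F1i over F1r, over the tested genes of 14 lists (number of genes in brackets), for all 18 libraries in the blocked fit (black bar) and within each second label number (coloured points). Large axon and cranial motor neuron genes are near 0 within number 1 and at -0.47 and -0.76 within number 3, while myelin genes are below 0 within each.

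Other genes that fell in F1i have varied roles. Iscu, the scaffold on which mitochondria assemble iron-sulphur clusters, had 123, 135 and 142 CPM in F1i and 144, 153 and 168 CPM in F1r, with no overlap. Its difference was small and even, -0.20 ± 0.04 on the log2 scale overall (adjusted p = 0.00959) and -0.21, -0.19 and -0.20 within the second numbers, and its adjusted p was 0.0813 without the block. Rpp25, a subunit of ribonuclease P and MRP, had 28.5, 31.5 and 34.1 CPM in F1i and 34.6, 38.7 and 43.6 CPM in F1r, again with no overlap (-0.27 ± 0.05, adjusted p = 0.0103). The adjusted p of Rpp25 was 0.0573 with a correction for GC content, 0.0613 without the 3 outlying libraries and 0.0813 without the block.

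Pcdhb20, a clustered beta protocadherin of the cell surface, was at 22.5 ± 2.7 CPM in F1i and 27.8 ± 2.3 CPM in F1r (-0.30 ± 0.06, adjusted p = 0.0251). Close relatives of this gene stand beside it in the cluster, and how reads shared between copies were counted is not given in the sources used here. Trnp1, a nuclear protein known from mouse cortical progenitors, was at 144 ± 8.0 CPM in F1i and 162 ± 7.2 CPM in F1r (-0.17 ± 0.04, adjusted p = 0.0471). With the GC correction Trnp1 was at -0.08 (adjusted p = 0.626), and without the 3 outlying libraries neither it nor Pcdhb20 passed (0.0928 and 0.0779). Trnp1 and Pcdhb20 were called in 4 and 12 of the 18 fits that left out 1 library.

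Among the genes that rose in F1i, Snhg11 was the most abundant outside the loci. This long non-coding RNA that hosts small nucleolar RNAs had 2997, 4056 and 4886 CPM in F1i and 2302, 2953 and 4055 CPM in F1r. Its log2 fold change was 0.42 ± 0.07 (adjusted p = 0.00929), close to the same at each second number (0.40, 0.43 and 0.41), although the ranges overlapped and the adjusted p was 0.166 without the block. Sfi1, a centrin-binding protein of the centrosome, had 35.6, 41.6 and 50.1 CPM in F1i and 27.8, 31.2 and 35.3 CPM in F1r, with no overlap (0.44 ± 0.07, adjusted p = 0.000915). Naca, a part of the complex that meets new peptides at the ribosome, was at 11.5 ± 1.2 CPM in F1i and 8.51 ± 1.14 CPM in F1r (0.41 ± 0.08, adjusted p = 0.0279). Its call was lost without the 3 outlying libraries (0.0664), without the block (0.0715) and in 9 of the 18 fits that left out 1 library, namely F1i 1_2, 2_2 or 2_3 or F1r 5_1, 5_2, 5_3, 6_2, 6_3 or 7_1 (up to 0.0843). Gm12807, annotated as a processed pseudogene, was at 6.69 ± 2.51 CPM in F1i and 3.56 ± 1.19 CPM in F1r (0.92 ± 0.18, adjusted p = 0.0205). Its adjusted p was 0.16 without the block and up to 0.0615 without F1i 1_2 or F1r 5_3.

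A further 11 genes that rose, named after their values were seen, had log2 fold changes of 0.19 to 0.36 and adjusted p-values of 0.0122 to 0.0414. Adamts20, a secreted metalloprotease of the extracellular matrix, was at 64.0 ± 4.8 CPM in F1i and 53.4 ± 3.0 CPM in F1r. It alone of the 11 also passed without the block (0.043), and it lost its call only without F1r 5_3 (0.0562) among the 18 fits that left out 1 library. Armc2, an armadillo repeat protein, had no overlap, with 29.8 to 39.4 CPM in F1i and 23.04 to 29.6 CPM in F1r. The others were Pxdn, a peroxidase that cross-links basement membrane collagen, Odf2, a protein of centriole appendages, Ccnl2 and Pnisr, proteins of splicing, Gtf2a2, a subunit of TFIIA, Dhx33, an RNA helicase, Mccc1, an enzyme of leucine breakdown, Zfp641, a zinc finger gene, and C2cd5, a C2 domain protein of membrane traffic. Zfp641 was the one among them called in all 18 fits that left out 1 library. The calls of Pxdn, Odf2, Pnisr, Gtf2a2, Dhx33, Mccc1 and C2cd5 were lost without the 3 outlying libraries (adjusted p = 0.0556 to 0.0928). They held in 10, 13, 9, 10, 7, 8 and 3 of the 18 fits, in that order of genes. Those of Ccnl2 and Armc2 held in 10 and 8. Leaving out F1i 1_2, F1i 2_3, F1r 5_2 or F1r 5_3 ended the call of each of these 9 genes. Shisa7, Camk1, Cabp5 and Unc13b above were likewise named after their values were seen.

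No gene of serotonin neurons passed in adults. Of the 15 tested, none was higher and 1 lower at an unadjusted p under 0.05, DESeq2 called none, and the median log2 fold change was 0.02. Tph2 was at 0.06 ± 0.07 (adjusted p = 0.76), Slc6a4 at 0.04 ± 0.07 (0.864) and Fev, a transcription factor of these neurons, at -0.10 ± 0.07 (0.614). Among the wider lists, 33 of 43 nuclear genes of oxidative phosphorylation and 17 of 18 of cholesterol synthesis were below 0, with medians of -0.07 and -0.06, and no member passed. By comparison, 6101 of all 11962 genes tested were below 0, and 5.93% were lower and 8.08% higher at an unadjusted p under 0.05. DESeq2 called 0.544% of the genes it tested lower and 1.08% higher. At an unadjusted p under 0.05, 7 oxidative phosphorylation genes were lower and 1 higher, and DESeq2 called 1 lower, while 2 cholesterol synthesis genes were lower and DESeq2 called none. Of 22 genes of DNA methylation and chromatin none passed, 7 were higher and 1 lower at an unadjusted p under 0.05, and DESeq2 called 2 higher and 1 lower. Tet2, a methylcytosine oxidase, was at 0.21 and nearest to passing (adjusted p = 0.0512). The median GC content was 55.0% over the 9 genes that fell and 47.7% over the 22 that rose, beside 49.8% over all tested, and 33 of the 35 calls were also made with the GC correction, among 153 in all (1.28%).

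The alleles were then compared between the crosses. They are counted from different reads of the same libraries and add up to the total, so these values describe how a total is made up and are no independent support for it. The C57 counts alone gave 108 calls (0.903% of 11962) and the CAST counts 125 (1.04%). Of the 31 genes, 26 had both alleles on the side of the total, 13 were called for both alleles, 6 for C57 only, 11 for CAST only and 1, Camk1, for neither. Ube3a, Trappc9, Plagl1 and Meg3 had their alleles on opposite sides. The other 27 genes had CAST shares that differed by under 10 percentage points between the crosses, and 26 of these had both alleles on the side of the total, the exception being Gm12807, which had almost no C57 counts.

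Snhg11 was at 0.41 on the C57 allele and 0.42 on the CAST allele, on the log2 scale, and Cplx1 at -0.27 and -0.29. Iscu was at -0.21 on C57 and -0.19 on CAST, and Mbp at -0.28 and -0.26. In these 4 genes each allele passed on its own, with adjusted p-values of 0.000179 to 0.0358. Pcdhb20 was unlike them, with -0.09 on C57 (adjusted p = 0.674) and -0.57 on CAST (4.63e-05). Sfi1 was at 0.07 on C57 (0.853) and 0.50 on CAST (1.76e-05), with CAST giving 87.5% of its counts in F1i and 84.1% in F1r. Whether the 2 alleles of a gene differed in their change was not tested.

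**Figure D4:**
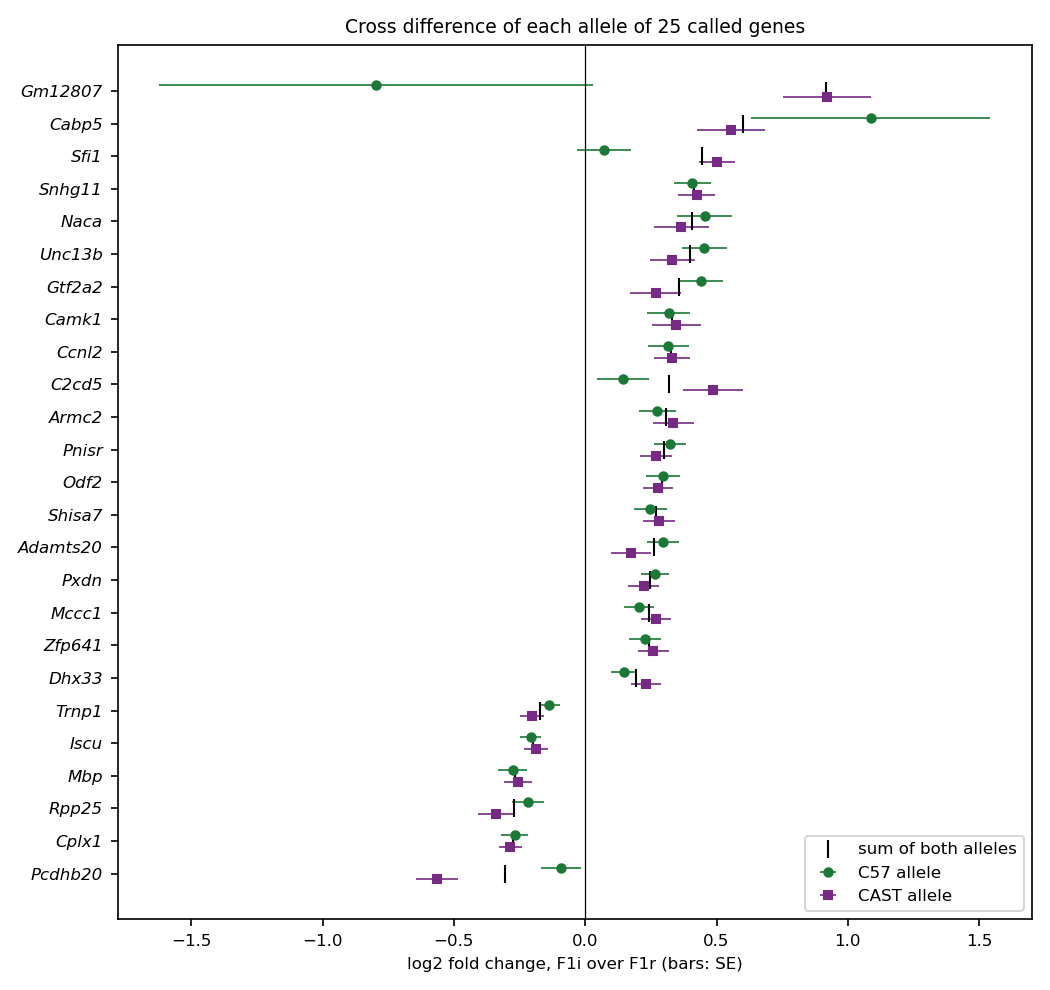
Log2 fold change, F1i over F1r, of the C57 counts (circles) and the CAST counts (squares) with their SE, and of the total (black bars), for 25 called genes whose CAST share differed by under 10 percentage points between the crosses. For 24 genes both alleles lie on the side of the total, close together for Snhg11 and Cplx1 and apart for Pcdhb20 and Sfi1.

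The same crosses at P5 and P15, in other libraries, gave 138 calls of 11430 genes tested (1.21%) and 6 of 11362 (0.0528%). Of the 31 genes called in adults 30 were tested at P5, and 22 of them had the same sign there, 73.3%, beside 55.9% of the 11301 genes tested at both ages. Cplx1, Shisa7, Ube3a, Plagl1, Sfi1, Trappc9 and Mbp passed at P5 too, each on the same side. At P15, 18 of the 31 had the same sign (58.1%, beside 47.4% of all genes tested at both ages), and Ube3a alone passed, with a log2 fold change of -0.67 ± 0.09 (adjusted p = 0.00275).

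The genes called at P5, without the 4 loci, were also read in adults. Of the 82 that were lower in F1i at P5 (0.717% of those tested), 68 were below 0 in adults, with a median log2 fold change of -0.09, and 36 of them were lower at an unadjusted p under 0.05 against 3 higher. They include Mag, Mobp, Cnp, Cldn11, Trf and Pllp of myelin and Nefm, Nefh, Syt2, Vamp1, Thy1 and Cntnap1 of axons and their terminals. Of the 52 that were higher at P5 (0.49% with the 4 loci), 49 were tested in adults, and 28 of them were above 0 with a median of 0.02, and 14 were higher at an unadjusted p under 0.05 against 1 lower. By comparison, 6101 of all 11962 genes tested in adults were below 0 and 5861 above. At an unadjusted p under 0.05, 5.93% of them were lower and 8.08% higher.

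The myelin list had a median of -0.47 over 12 genes tested at P5, -0.06 over 17 at P15 and -0.19 over 16 in adults. At P5 10 of its genes were called lower, against 1 in adults. Over the P5, P15 and adult libraries Mbp had log2 fold changes of -0.47 ± 0.04, -0.09 ± 0.11 and -0.27 ± 0.06, and Mobp of -0.75 ± 0.05, -0.11 ± 0.11 and -0.24 ± 0.07. The difference between the ages did not pass for either (adult minus P5, adjusted p = 1 for Mbp and 0.283 for Mobp).

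The fold change itself differed between adults and P5 in 1 of 11754 genes, 0.00851%, which was Plagl1. Its log2 fold changes over the 3 ages were 0.18 ± 0.04, 0.43 ± 0.08 and 0.66 ± 0.06, and the adult value exceeded that at P5 by 0.47 (adjusted p = 0.0151). Without the block no gene passed (edgeR, 468 at an unadjusted p under 0.05), and Plagl1 was at 0.48 (adjusted p = 0.35). Between adults and P15, 7 genes passed (0.0596%): the 4 mitochondria-like loci, Cabp5, Hbb-bt and Meg3. Meg3 was at -0.13 ± 0.10 at P15 and 0.44 ± 0.08 in adults, a difference of 0.58 (adjusted p = 0.0178). Its value at P5, -0.03 ± 0.03, was also near 0, but the adult minus P5 difference of 0.47 did not pass (adjusted p = 0.27). Snhg11 had -0.03 ± 0.03, 0.02 ± 0.08 and 0.42 ± 0.07 over the P5, P15 and adult libraries, and its adult minus P5 difference of 0.44 had an adjusted p of 0.173.

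Some imprinted genes and serotonin genes were called at P5 and not in adults. Rasgrf1 was at -0.31 ± 0.04 at P5 (adjusted p = 8.64e-08) and -0.07 ± 0.03 in adults, and Impact at -0.26 ± 0.03 (2.82e-07) and 0.00 ± 0.06. Tph2 was at -0.28 ± 0.06 at P5 (0.014) and 0.06 ± 0.07 in adults. For none of these 3 did the difference between the ages pass (adjusted p = 0.283, 0.72 and 0.902).

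**Figure D5:**
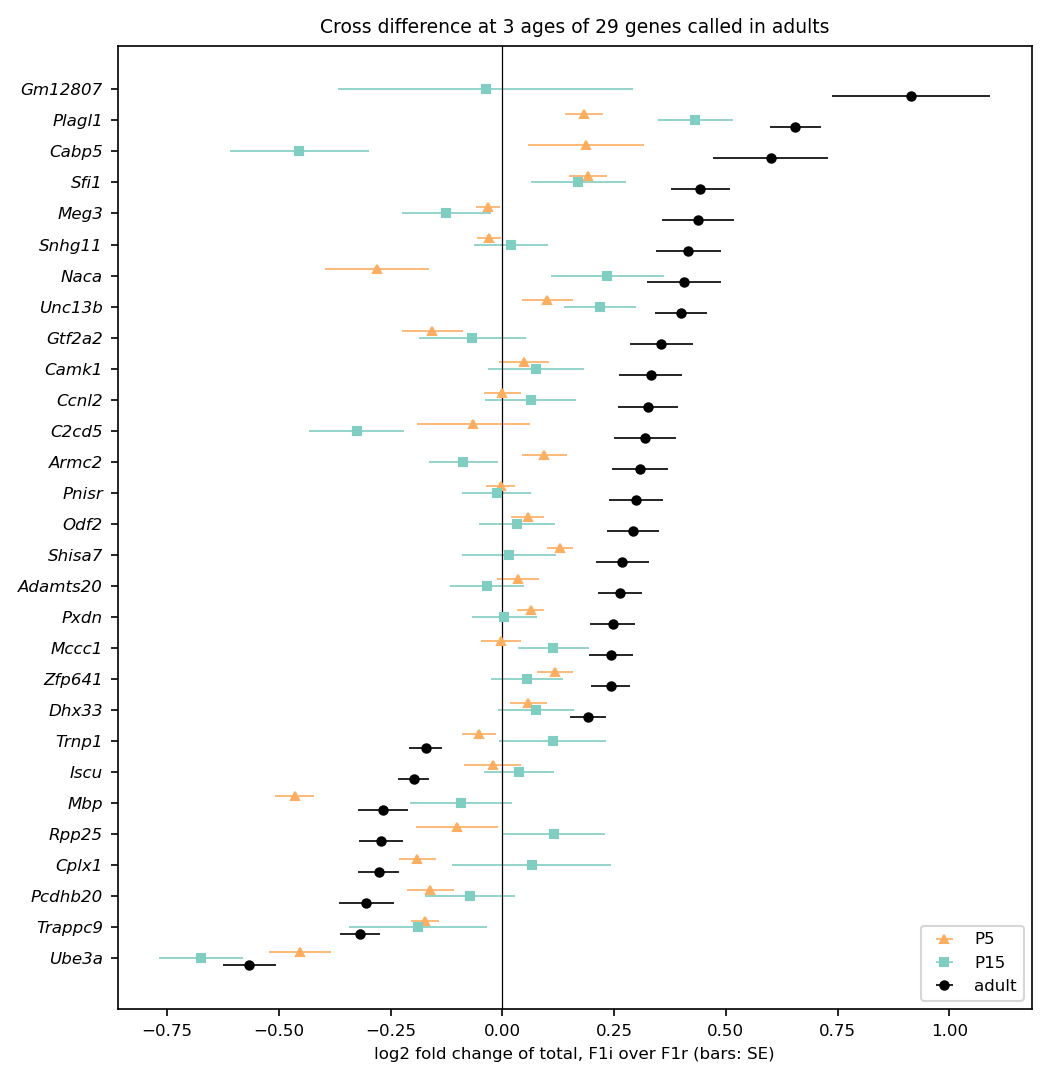
Log2 fold change of the total, F1i over F1r, with its SE, at P5 (triangles), P15 (squares) and in adults (circles) for 29 genes called in adults, ordered by the adult value (Gm12807 was not tested at P5). Ube3a is below 0 at each age, Plagl1 above 0 with its highest value in adults, and Meg3 and Snhg11 are above 0.4 in adults and near 0 at P5.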

How the data were processed

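Counts per gene and allele were deposited by the authors as whole numbers, from reads aligned with Novoalign to mm9 per the submitters' processing notes. The filters, the gene model and the handling of shared reads and strand are not given in the sources used here. Since only reads that cover a strain difference can be assigned, a total is the sum of assigned reads, not of all reads. Names, chromosomes and GC content came from GENCODE M21 (GRCm38), matched by gene ID for 14969 of 15499 genes (96.58%), and no coordinates were used. Sequences are from its transcripts, aligned with Biopython 1.88.

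C57 and CAST counts were summed per library and scaled by TMM. Autosomal genes with a mean total of 20 or more were fitted with edgeR 4.0.16 (glmQLFit, glmQLFTest, R 4.3.3) with the cross and the second label number as terms, F1i over F1r, Benjamini-Hochberg over all genes tested. Each allele's counts were fitted alike. P5 and P15 were fitted with the cross alone. The differences between ages were tested in 1 fit over all 46 libraries, from P5, P15 and adults, with a shared spread. The second number was a block for the adult libraries only, and the difference with P15 was added later. The second number had been planned as a pairing block and was kept, since the crosses' mean deviations correlated at each number (r = 0.72, 0.49 and 0.40). No libraries were identical. DESeq2 1.42.0 and limma 3.58.1 were alternatives. The fitting was tested on simulated data.

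Genes were named if called and among the 10 largest folds per direction with a mean of 50 or more counts, the 5 smallest p-values per direction or the first 3 called of a list, with some fixed genes, and other called genes were added, except 2 that are not reported here. Of 698 list names 620 were in the table. The comparison and the lists were chosen with earlier results of these data known.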

Additional observations from a re-analysis of the deposited data

Results flagged for a closer look

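In 2 of 90 groups of 9 libraries (45 genes in each cross), 1 library lay far from the rest, where chance flags about 1 group in 20. Iscu had 168 CPM in F1r 6_3, against 144 to 156 CPM in the other F1r libraries. Gm13341 had 0.089 CPM in F1r 7_2, a single count, and 0 in the other F1r libraries.

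For 8 genes the fold change differed between ages by a test of the difference itself, on the log2 scale. Plagl1 was higher by 0.47 in adults than at P5. Against P15, adults were higher by 1.06 for Cabp5, 0.98 for the haemoglobin gene Hbb-bt and 0.58 for Meg3. The 4 mitochondria-like loci were also higher in adults than at P15, by 7.92 (Gm13341), 3.67 (Gm13340), 3.41 (Gm13339) and 2.26 (Gm11410). These values rest on low counts in F1r, near 0 in adults. In that order of loci the F1r means were 0.0099, 1.72, 0.31 and 0.23 CPM in adults and 7.83, 31.8, 2.92 and 5.33 CPM at P15. Hbb-bt was at 10.7 ± 3.4 CPM in F1i and 7.59 ± 1.75 CPM in F1r adults (SD, n = 9 each) and did not pass in adults (adjusted p = 0.215).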

How the results depend on the processing

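The 35 adult calls became 10 without the block (the pairing by second number), 44 without it but with a GC correction, 153 with the block and GC correction, 179 with DESeq2, 267 with limma-voom and correlated first numbers, and 280 with libraries summed by first number, where 57.5% were higher in F1i beside 26 of 35. They were 53 with no count minimum, 56 with a minimum of 100 and 73 with X-linked genes. RLE or upper-quartile scaling, or a library size without the 4 loci, gave 34 to 36. Within second numbers 1, 2 and 3 there were 6, 7 and 26. Without 1 library there were 17 (F1r 5_3) to 75 (F1i 1_3). Without first numbers 1, 2 and 3 of F1i there were 30, 11 and 50, and without 5, 6 and 7 of F1r 9, 18 and 21. Settings chosen after seeing the data gave 83 with the numbers of F1r 7_1 and 7_2 exchanged, 20 without both, and 20 without F1i 1_1 as well.

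Without the block the C57 counts gave 64 calls and the CAST counts 69, beside 108 and 125, and the adult minus P5 difference 0 beside 1. The P5 calls were 115 with DESeq2 and 143 with a replicate block by label number, and the P15 calls 8 and 7.

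Across 1467 recomputed fold changes of the 35 genes none changed sign, and 440 lost the call. Sign changes occurred in genes that were not called. Impact was at 0.01 without the block, 0 with the minimum of 100, 0.02 summed by first number, 0.13 and 0.02 within numbers 1 and 3, and 0.05, 0 and 0.03 without first numbers 2, 3 and 6, with -0.04 to 0.02 leaving out 1 library. Within number 1 Peg3 was at 0.06, Ermn at 0.18 and Slc6a4 at -0.03. Slc6a4 was at -0.04 within number 3 and 0 to 0.08 leaving out 1 library, and Inpp5f at -0.09 within number 2 and -0.01 to 0.06 leaving out 1. Without first number 2 Peg3 was at 0.01 and Ermn at 0.02, without 3 Tph2 was at -0.04 and Slc6a4 at -0.05, and without 1 Inpp5f was at -0.01. The cause of these changes was not tested.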
